A study of Mus musculus with 12 samples.

Results

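The cortex of co-treated deletion mice was compared with that of vehicle-treated deletion mice across all measured genes. The comparison used 6 of the 12 mice of the series, 3 on each side, grouped by their labels. CD mice carry a heterozygous deletion of the interval from Gtf2i to Fkbp6, a model of Williams-Beuren syndrome, on a background that is mostly C57BL/6J per the methods and C57Bl6 per the labels, and the study crossed them with a Thy1-YFP line in which a subset of projection neurons is fluorescent. Per the labels, VERCUR-CD mice drank curcumin, a phenol of turmeric, at 60 mg/kg/day together with verapamil at 10 mg/kg/day for 1 month from 8 weeks of age, and VEH-CD mice, which the labels call untreated, drank the vehicle. The labels place the end of the experiment at 16 weeks, whereas the methods of the study give a lower dose of verapamil and an earlier end. Wild-type mice on vehicle (VEH-WT) and on the same co-treatment (VERCUR-WT), 3 each, entered the shared estimate of the spread and are given only where they place a difference. In these samples both agents were always given together, so the part of each cannot be told apart. The methods describe the tissue as frontal cortex and the labels as cortex, and in such tissue fewer cells of a type and less RNA per cell cannot be told apart either.

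Williams-Beuren syndrome follows the loss of a stretch of human chromosome 7, and the matching stretch of mouse chromosome 5 holds the transcription factor gene Gtf2i and the kinase gene Limk1, among others. Verapamil blocks voltage-gated calcium channels of the L type, which carry calcium into neurons and muscle cells upon depolarization and pass the signal on to kinases of the MAPK cascade. Curcumin is best known for its action on the antioxidant transcription factor NRF2 and on the inflammatory transcription factor NF-kappa B. The comparison asks which RNAs of the deletion cortex differ after both agents were given.

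The genotype label held in every CD library. The 19 measured genes of the deleted interval summed to 37231 to 41601 normalized counts (reads divided by a factor per mouse) in the CD mice and to 78472 to 84228 in the WT mice. Within CD the sums were separate, at 40859 to 41601 in VEH-CD and 37231 to 40194.5 in VERCUR-CD. Gtf2i had normalized counts of 6189, 6729 and 6138 in VEH-CD and 6249, 5916 and 6017 in VERCUR-CD. Limk1 had 1793, 1909 and 1994 against 1840.1, 1823 and 1716. The groups overlapped in both genes. Over the 19 genes the median log2 difference, VERCUR-CD minus VEH-CD, was -0.08, and 4 were lower without overlap (4.63% of all genes were). All 19 estimates lay below 0, from -0.22 in Lat2, an adaptor of immune receptor signaling, to -0.01 in Rfc2, a subunit of the DNA replication clamp loader. Only Clip2 of the 19, a linker of microtubules and membranes, had an unadjusted p under 0.05 (log2 difference -0.18, unadjusted p = 0.0253). Of all genes, 1.44% were lower at this level.

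Several libraries stood apart, in part along the treatment. Reads counted ran from 40290000 to 54240000 in VEH-CD and from 51020000 to 56460000 in VERCUR-CD. Drd2, a dopamine receptor of striatal projection neurons, had normalized counts of 1531, 537 and 527 in VEH-CD and 1161, 64.8 and 49.1 in VERCUR-CD. The first mouse of each group was high, and VERCUR-CD mice 2 and 3 lay below all VEH-CD mice. The summed level of 12 striatal markers ran from 23617 to 46227 in VEH-CD and from 16395 to 35996 in VERCUR-CD, with none of the 12 estimates above 0 and a median log2 difference of -0.75. The cortical identity of the tissue held, with the vesicular glutamate transporter gene Slc17a7 at 93443 to 102849 in the 6 mice. The deviations of VERCUR-CD mouse 2 from the mean of the 6 CD mice had a standard deviation of 0.35 on the log2 scale, against 0.22 to 0.25 in the other 5 mice. The part of dissection in the differences below was not tested, and counts were repeated without these mice.

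**Figure D1:**
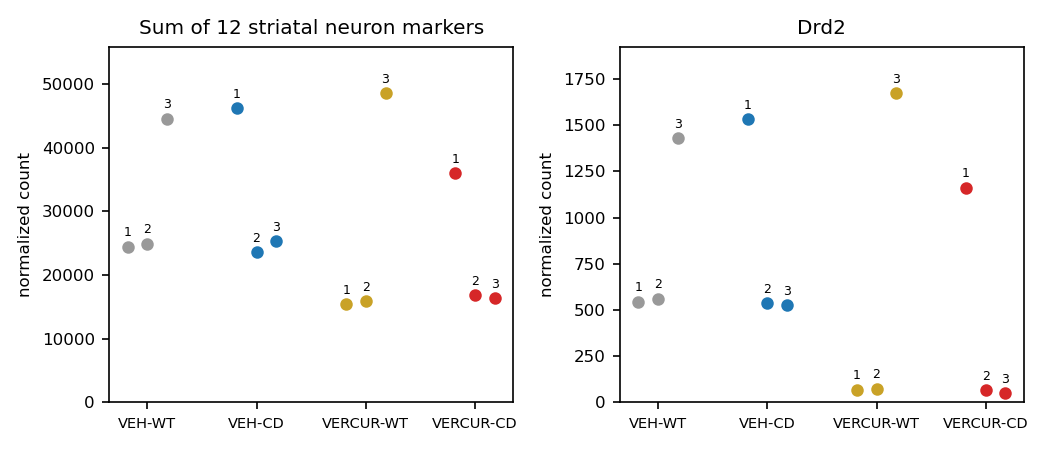
The left panel plots the sum of the normalized counts of 12 striatal neuron markers and the right panel the normalized count of Drd2, with a point for each mouse, numbered by replicate, in the 4 groups. VEH-CD mouse 1 and VERCUR-CD mouse 1 were the highest of their groups in the striatal sum (46227 and 35996) and in Drd2 (1531 and 1161).

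The RNA with the smallest p value is shown by its sequence, because it is a small noncoding RNA and not a messenger. Bc1 is transcribed by RNA polymerase III from an internal promoter made of an A box and a B box, and in neurons it is carried into dendrites, where it represses translation. The RNA annotated by GENCODE M21 has 168 bases and lies on chromosome 7 of GRCm38, from 144914470 to 144914637 on the plus strand, and the letters that match the A box and then the B box are in capitals.
Bc1: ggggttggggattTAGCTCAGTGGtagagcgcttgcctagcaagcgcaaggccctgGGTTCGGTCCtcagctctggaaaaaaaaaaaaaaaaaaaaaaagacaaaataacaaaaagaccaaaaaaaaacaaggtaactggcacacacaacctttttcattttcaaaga
Letters of the A box occurred on either strand in 4.73% and those of the B box in 0.481% of 32851 promoter windows of RefSeq, each of 300 bases. The A-rich stretch of Bc1 follows both matches.

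Gclm is shown as a textbook target of NRF2, the pathway curcumin is known for. It encodes the modifier subunit of the enzyme that limits glutathione synthesis. The RefSeq promoter window, GRCm38.p6 chr3:122245307-122245606 on the plus strand, has in capitals the letters of an antioxidant response element, the site that NRF2 binds (TGACNNNGC, here on the opposite strand).
Gclm: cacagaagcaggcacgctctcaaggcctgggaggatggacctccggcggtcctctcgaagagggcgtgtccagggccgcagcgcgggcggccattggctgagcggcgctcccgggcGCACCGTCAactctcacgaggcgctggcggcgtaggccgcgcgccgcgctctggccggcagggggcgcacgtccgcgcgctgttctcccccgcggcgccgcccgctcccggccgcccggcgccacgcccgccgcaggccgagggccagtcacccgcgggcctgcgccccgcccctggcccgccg
These letters occurred on either strand in 12.4% of the 32851 windows. By gene they were found in 3781 of 27025 genes with a window (14.0%), and in 10 of the 24 NRF2 list genes that had one. Gclm had normalized counts of 2087, 2169 and 2101 in VEH-CD and 2120.2, 2657 and 2282 in VERCUR-CD. The groups overlapped, with a log2 difference of 0.14 (95% interval -0.02 to 0.31).

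Across the genome, none of the 17111 genes tested passed an adjusted p of 0.05 for VERCUR-CD minus VEH-CD (0%, by limma with Benjamini-Hochberg), the smallest adjusted p being 0.159. An unadjusted p under 0.05 was found in 605 genes (3.54%), fewer than the 856 that 5% of the tests would give. The mean was higher in VERCUR-CD for 358 of them (2.09%) and lower for 247 (1.44%). Adding the fold limits of the study, a ratio over 1.25 or under 0.75, left 195 higher (1.14%) and 89 lower genes (0.52%). On reads recovered from the normalized counts, limma's voom also called 0 genes, with 582 under 0.05 before adjustment. The 3 mice of each group did not overlap in 1427 genes (8.34%), of which 635 were higher (3.71%) and 792 lower (4.63%) in VERCUR-CD.

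The estimates were small for most genes. The median log2 difference over all genes was 0.0028, and the 5th and 95th percentiles were -0.29 and 0.30. The 95% interval of the typical gene reached 0.25 to each side on the log2 scale, a fold of 1.19, and for 15758 genes (92.1%) it lay within a doubling and a halving. In simulated data built for this comparison over 17111 genes, the same fit called 78% of 100 genes changed by 1 and 55% of 100 changed by 0.6 on the log2 scale. Whether these shares hold where single libraries stand apart, as several did here, was not tested. An estimate of at least 1 in size was found in 105 genes, 21 higher and 84 lower. Their median level was 24.6 normalized counts, against 721 for all genes tested.

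**Figure D2:**
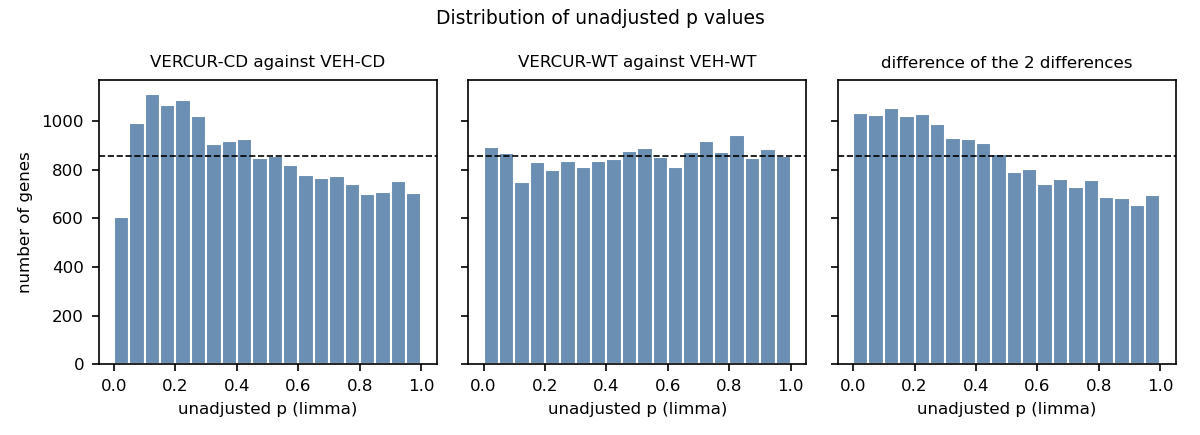
Each panel is a histogram of the unadjusted p values of 17111 genes in bins of 0.05, for VERCUR-CD against VEH-CD, for VERCUR-WT against VEH-WT and for the difference between these 2 effects, and the dashed line marks an even spread. The lowest bin holds 605 genes in the CD comparison, under the line of 856, 893 (5.22%) in the WT comparison and 1035 in the last panel.

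The count of 605 depended on single mice. Without VERCUR-CD mouse 1 it was 2320, and without VERCUR-CD mouse 2 it was 304. Without VEH-CD mouse 1 and VERCUR-CD mouse 1, which had high striatal markers, it was 1388. Of these 3 fits, only that without VERCUR-CD mouse 2 called genes after adjustment, Bc1 and Fam205a4.

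Bc1 had normalized counts of 758, 663 and 768 in VEH-CD and 4564, 2202 and 2832 in VERCUR-CD, against 599, 349.9 and 867 in VEH-WT and 862, 1029 and 1073 in VERCUR-WT. The 3 VERCUR-CD mice lay above the other 9. The log2 difference from VEH-CD was 2.07 (95% interval 1.44 to 2.69), a fold of 4.19, with an adjusted p of 0.159 (limma, Benjamini-Hochberg). The adjusted p of Bc1 was 0.0416 without VERCUR-CD mouse 2 and 0.0169 with the striatal level as a covariate, and its log2 difference ran from 1.78 to 2.31 over all alternatives. The methods describe mRNA libraries, and how evenly these captured Bc1, which is not a messenger, was not tested. Whether its reads also align elsewhere was not tested either.

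Of the other genes with higher values in VERCUR-CD, Zfp189, which encodes a zinc finger protein, had normalized counts of 201, 237 and 204 in VEH-CD and 366, 377 and 396 in VERCUR-CD. The lowest VERCUR-CD mouse lay well above the highest VEH-CD mouse, with a log2 difference of 0.83 (95% interval 0.48 to 1.18, unadjusted p = 0.000211). Ndst4, an enzyme that modifies heparan sulfate chains, had 40.0, 38.9 and 28.8 against 62.8, 83.6 and 147. Its log2 difference was 1.35 (95% interval 0.78 to 1.92), and VERCUR-CD mouse 3 was far above the rest. Mid1, an X-linked ubiquitin ligase that binds microtubules, had 702, 858 and 606 against 1081, 1098 and 1743, a log2 difference of 0.83 (95% interval 0.36 to 1.31). Mid1 crosses the border of the pseudoautosomal region in C57BL/6 mice.

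Utp14b, a retrogene whose product acts in ribosome assembly, was at 395, 327 and 480.4 in VEH-CD and 535, 665 and 511 in VERCUR-CD, so that the groups came close without overlapping. Shroom4, which acts on the actin cytoskeleton, had means of 199 ± 22.9 in VEH-CD against 287 ± 46.3 in VERCUR-CD (SD, n = 3 each). Fzd4, a receptor for Wnt ligands and norrin on vessels, had 415, 355 and 447 against 482, 611 and 632. Rock1, the kinase that acts below RhoA on actin and myosin, had 1127, 1021 and 939 against 1213, 1219 and 1227. The VERCUR-CD values of Rock1 lay close together, and its log2 difference was 0.25 (95% interval 0.10 to 0.40). Rnf182, a ubiquitin ligase, also had narrow groups, with 357 ± 3.30 in VEH-CD against 428 ± 18.7 in VERCUR-CD (SD, n = 3 each). Zfp993, a zinc finger gene of low expression, was at 9.14, 19.4 and 19.2 in VEH-CD and 29.7, 41.4 and 38.5 in VERCUR-CD. Zinc finger genes of this kind have close copies, and the counting program is not given in the sources used here, so its value is uncertain.

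Among the genes with lower values in VERCUR-CD, Rprm had the smallest p. It encodes Reprimo, a cell cycle inhibitor induced by p53. The normalized counts of Rprm were 3375, 3082 and 3265 in VEH-CD and 2686, 2494 and 2454 in VERCUR-CD, a log2 difference of -0.35 (95% interval -0.48 to -0.22, adjusted p = 0.648 with limma). VEH-WT mice had 2762, 2644 and 2570.1, below the 3 VEH-CD mice. Btbd19, a gene named for its BTB domain, had 271, 281 and 278 against 226, 209 and 218, and each group spread less than the gap between them. Kdm4b, a demethylase of lysine 9 of histone H3, had 3165, 3249 and 3079.7 against 2858, 2498 and 2739. Crocc, which encodes rootletin of the ciliary rootlet, had 2645, 2674 and 2379 against 2347, 1636 and 1901. Its highest VERCUR-CD mouse nearly reached the lowest VEH-CD mouse.

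Trex1, the exonuclease that clears DNA from the cytosol, had 311, 276 and 278 against 251, 198 and 220.4, a log2 difference of -0.37 (95% interval -0.60 to -0.15). Sulf1, which removes sulfate from heparan sulfate outside the cell, had means of 1000.2 ± 65.2 in VEH-CD against 812 ± 65.3 in VERCUR-CD (SD, n = 3 each). Prss35, a gene of the serine protease family, had means of 268 ± 15.4 in VEH-CD against 204 ± 9.97 in VERCUR-CD (SD, n = 3 each). The values of both were separate, with log2 differences of -0.30 and -0.40. Creb3l3, a membrane-bound transcription factor known from liver, had 49.1, 50.3 and 71.9 against 34.0, 25.2 and 26.0, a log2 difference of -0.97 at a low level. Rnf138rt1, a retrogene, had 10.3, 13.2 and 21.6 against 6.11, 5.40 and 5.77. Rpl37rt, annotated as a transcribed processed pseudogene, had 134, 126 and 170.1 against 102, 73.7 and 81.8. Reads of these last 2 genes may be shared with their parent genes.

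**Figure D3:**
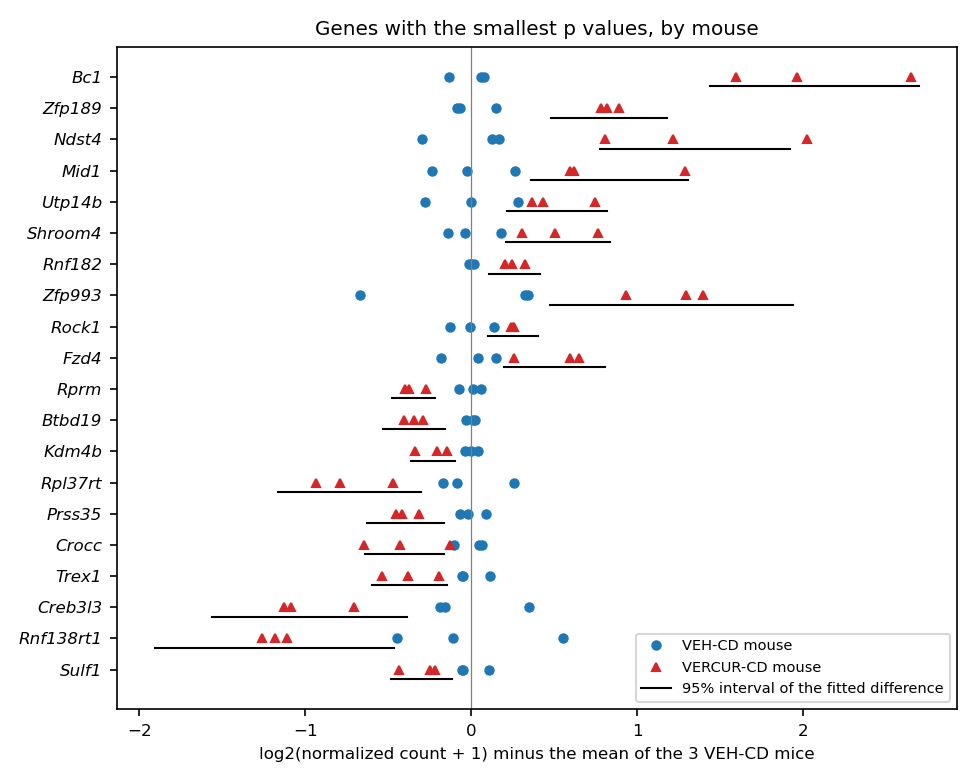
For the 20 genes with the smallest p values among those whose groups did not overlap, 10 in each direction, points give each CD mouse on the log2(normalized count + 1) scale relative to the mean of the 3 VEH-CD mice, and the black line below each row gives the 95% interval of the fitted difference. Bc1 stands farthest to the right, with an interval from 1.44 to 2.69.

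The adjusted p of the 19 genes after Bc1 ran from 0.648 to 0.867 (limma, Benjamini-Hochberg). All 20 kept their direction in each of the 21 to 23 alternatives in which they were tested. These genes were picked for their separation, so the separation itself is no evidence. Nor is the kept direction, since leaving out, removing or weighting values cannot reverse the order of groups that do not overlap.

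The co-treatment effect in CD mice was then set against that in WT mice, which shares no sample with it. For the difference between both effects, 0 genes (0%) passed an adjusted p of 0.05 in limma or its voom, the smallest adjusted p in the first being 0.532. Unadjusted, 1035 genes (6.05%) were under 0.05, 637 with the larger estimate in CD (3.72%) and 398 with the larger one in WT (2.33%). Zfp189 had the smallest p, with 343, 513 and 419 in VEH-WT and 309.8, 215 and 308 in VERCUR-WT. Its estimate was -0.61 in WT against 0.83 in CD (difference 1.44, standard error 0.23, unadjusted p = 3.11e-05). Utp14b had estimates of -0.54 in WT and 0.52 in CD, and Tent5a, a poly(A) polymerase, of -0.53 and 0.33. On the other side stood Rprm, with 0.03 in WT, Rpl37rt with 0.49, and Tbx1, a developmental transcription factor, with 0.90 in WT and -0.67 in CD. VEH-CD also differed from VEH-WT in estimate for these genes, by -0.97 in Zfp189 and by -0.73 in Utp14b. That comparison shares the VEH-CD mice with the co-treatment comparison, so a high or low value in those mice enters both.

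The targets of verapamil came first among the pathway lists. Of 12 genes of L-type channel subunits, 11 were tested and none had an unadjusted p under 0.05. Cacna1c, the main pore-forming subunit of brain, had 2674, 3096 and 2868 in VEH-CD and 2848, 3956 and 3162 in VERCUR-CD. Cacna1d, another pore-forming subunit, had 1595, 1690.1 and 1534 against 1501, 2047 and 1680.3. The groups overlapped in both genes, and VERCUR-CD mouse 2 was the highest in both. The list had a median log2 difference of 0.10, from -0.14 in Cacnb1 to 0.23 in Cacna2d1, beside 0.0028 over all genes, and 0.01 without VERCUR-CD mouse 2. In 13 genes of other voltage-gated calcium channels the median was 0.02, and Cacna1a, the P/Q-type pore, had an estimate of 0.02 (95% interval -0.10 to 0.14). Cacng6, a gamma subunit that the study discusses, was at 51.4, 46.8 and 49.1 in VEH-CD and 44.5, 43.2 and 64.5 in VERCUR-CD, with a 95% interval from -0.45 to 0.49.

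Among 26 genes of calcium handling, only Ryr2 was under 0.05 before adjustment, in the higher direction (2.09% of all genes were). It encodes the ryanodine receptor that releases calcium from the endoplasmic reticulum. Ryr2 had 6482, 7132 and 7144 against 7001, 10455 and 7848, and VERCUR-CD mouse 1 lay within the range of VEH-CD. Atp2b1, a calcium pump of the plasma membrane, had an estimate of 0.10 (95% interval -0.03 to 0.24). Of 32 potassium channel genes, none had groups that did not overlap. Kcnb2, Kcnh7 and Kcnq5 were higher with an unadjusted p under 0.05 (2.09% of all genes), with estimates of 0.37, 0.31 and 0.22. In all 3, VERCUR-CD mouse 2 was the highest of the 6 mice. Kcna1, a delayed rectifier of axons, had an estimate of 0.19 (95% interval -0.22 to 0.60).

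Receptor subunits for glutamate and GABA had a median of 0.07 over 36 genes, with 3 under 0.05, all higher (2.09% of all genes). Grin2b, an NMDA receptor subunit, had 17634, 17422 and 18389.7 against 18932, 28781 and 21562, a log2 difference of 0.35 (unadjusted p = 0.0134). Gabrg1, a gamma subunit of the GABA-A receptor, had 933, 867 and 961 against 982, 1373 and 1214. The values of both were separate, and VERCUR-CD mouse 2 was again the highest. Gabrb1 had an estimate of 0.30 and overlapped between the groups, and Gria1, an AMPA receptor subunit, had an estimate of -0.03 (95% interval -0.18 to 0.12). Without VERCUR-CD mouse 2, the medians of the receptor, potassium channel and calcium handling lists lay between -0.0042 and -0.0021.

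The targets of curcumin showed no common direction. Of 29 NRF2 targets, 11 had estimates above 0, the median was -0.03, and a single gene in each direction was under 0.05. Of all genes, 2.09% were higher and 1.44% lower at this level. Slc7a11, the cystine transporter that feeds glutathione synthesis, had 1398, 1347 and 1416 against 1433, 3183 and 1847, a log2 difference of 0.55 that rested largely on VERCUR-CD mouse 2. Gsr, glutathione reductase, had 1325, 1358 and 1233 against 1217, 1178 and 1112, a log2 difference of -0.16. Nqo1, a quinone reductase often used as a readout of NRF2, was at 160.0, 124 and 140.2 against 150.1, 153 and 152. Its interval ran from -0.18 to 0.40, and that of Hmox1, heme oxygenase, from -0.17 to 0.37. Nfe2l2, which encodes NRF2 itself, had 593, 577 and 677 against 684, 705 and 659, a log2 difference of 0.15 with an interval from -0.05 to 0.36.

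Of 9 targets of the aryl hydrocarbon receptor, 7 were tested, with a median of 0.11 that was -0.017 without VERCUR-CD mouse 2. Tiparp, a poly-ADP-ribose polymerase that neuronal activity also induces, had 356, 422 and 436 against 654, 656 and 577, a log2 difference of 0.64 (unadjusted p = 0.0142). The other 6 were above 0.05, and Cyp1b1, a cytochrome P450, had an interval from -0.41 to 0.72. Of 24 subunits and targets of NF-kappa B, 19 were tested, with a median of 0.05 and none under 0.05. Nfkbia, the inhibitor that NF-kappa B induces, had 753, 666 and 824 against 774, 718 and 853, and the groups overlapped.

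The inflammasome lists held no gene under 0.05 before adjustment. The 7 inflammasome genes that the study chose on these samples had a median of -0.06, with 3 estimates above 0 and none under 0.05. Nlrp3, the sensor, had 51.4, 51.2 and 47.9 against 46.2, 47.7 and 35.6. These values were separate by a narrow margin, and the log2 difference of -0.22 had a 95% interval from -0.78 to 0.33. Pycard, the adaptor ASC, had 127, 102 and 128 against 142, 112 and 153. Aim2, a sensor of DNA, had 90.3, 71.5 and 80.3 against 85.5, 74.6 and 63.5. Both overlapped. Among 14 other inflammasome genes none was under 0.05, and Casp1, the effector caspase, had an interval from -0.75 to 0.44. In the study's list of NOD-like receptor genes, 1 of 12 was under 0.05, in the lower direction (1.44% of all genes were). This was Card9, an adaptor of innate receptors of myeloid cells, at 69.7, 70.6 and 62.3 against 42.8, 35.1 and 55.8 (log2 difference -0.61, unadjusted p = 0.00623). None of 10 genes in its NF-kappa B list was under 0.05, at a median of 0.06.

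Markers of microglial states gave wide intervals. Of the study's 13 M1 markers, 10 had estimates above 0, with a median of 0.11. Tlr4, the receptor of lipopolysaccharide, had 48.0, 53.0 and 40.7 against 55.8, 94.4 and 60.6 (unadjusted p = 0.0404). It was the only marker of the 13 under 0.05, and 2.09% of all genes were higher at this level. The groups did not overlap in Tlr4 and in Cd86, a costimulatory protein (0.31), both higher (3.71% of all genes were). The lowest estimate was -0.16 in Dhrs3. Of the remaining 10 markers, 6 are named here, with estimates of 0.11 in Nos2, 0.08 in Il18, 0.33 in Socs3, 0.10 in Cd68, 0.04 in Cd80 and 0.19 in Tlr2, each with overlapping groups and an interval that included 0. Among 8 M2 markers, none was under 0.05. Mrc1, the mannose receptor of macrophages, had 89.1, 104 and 172 against 127, 202 and 96.2. Klf4, a transcription factor that is also induced by activity, had 251, 259 and 208 against 274, 296 and 266, which did not overlap (log2 difference 0.22, 95% interval -0.14 to 0.58).

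Homeostatic markers of microglia had 13 of 13 estimates above 0, a median of 0.09 and none under 0.05. Cx3cr1, the fractalkine receptor, had 3441, 3029 and 3083 against 3296, 3544 and 3532. Aif1, the gene of IBA1, had 311, 218 and 259 against 311, 241 and 267, with an interval from -0.27 to 0.39. Of 19 markers of activated microglia, 13 were tested, with a median of -0.02 and none under 0.05. Of 21 interferon-responsive genes tested, only Ifi203 was under 0.05, in the higher direction (2.09% of all genes were). Ifi203 was at a low level of 10.3, 3.53 and 9.58 against 15.7, 15.3 and 10.6, and Isg15 had an interval from -0.98 to 0.55.

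Immediate early genes, which neurons transcribe within minutes of activity, had the highest median of the 56 lists, 0.33 on the log2 scale, with 27 of 30 estimates above 0 (50.8% of all genes). The list median of each mouse, relative to the mean of VEH-CD, was -0.27, 0.15 and 0.11 in VEH-CD and 0.48, 0.17 and 0.37 in VERCUR-CD. The groups were separate, but VEH-CD mouse 2 and VERCUR-CD mouse 2 nearly met. Fos had 278, 1279 and 819 against 1409.9, 747 and 1335, and Arc, which regulates AMPA receptors at synapses, had 2658, 7209.8 and 8603 against 16726, 8537 and 12694. Fos and Arc overlapped, and VEH-CD mouse 1 was the lowest in both. An unadjusted p under 0.05 was found in 5 of the 30, all higher, against 2.09% of all genes. Beside Tiparp these were Ier3 (0.33, unadjusted p = 0.00886), Klf10 (0.62, unadjusted p = 0.0211), Egr3 (0.28, unadjusted p = 0.0464) and Sik1 (0.59, unadjusted p = 0.049).

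The same list had a median of -0.68 in VERCUR-WT minus VEH-WT. For the difference between both co-treatment effects the median was 0.92, and 20 of the 30 genes had an unadjusted p under 0.05, all with the larger estimate in CD (3.72% of all genes). None passed after adjustment. The list medians of the mice were 0.71, 1.32 and 0.92 in VEH-WT and 0.46, 0.02 and 0.58 in VERCUR-WT, so that the VEH-WT mice lay above all CD mice and the VERCUR-WT mice overlapped both CD groups. Leaving out single CD mice, the median in CD ran from 0.21 to 0.43, and without both mice of high striatal markers it was 0.089. Over the 6 members with a coefficient of variation under 20% in every group it was 0.065. Activity-regulated effector genes, which follow later, had a median of 0.05 with none of 25 under 0.05. Bdnf, the neurotrophin among them, had 1079.7, 1654 and 1333 against 1338, 1511 and 1302, with an interval from -0.32 to 0.42. Neurotrophins and their receptors had a median of 0.08 and none of 10 under 0.05.

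Genes of the MAPK pathway are given by role. The 23 genes of the ERK cascade had a median of 0.07 and none under 0.05. Without VERCUR-CD mouse 2 this median was -0.014. The 25 genes of the PI3K-AKT-mTOR pathway had a median of 0.08 (0.0018 without that mouse), with Akt1 at 0.03 (95% interval -0.08 to 0.14) and Irs1, an insulin receptor substrate, under 0.05 (0.31, unadjusted p = 0.0482). Of 18 feedback inhibitors, which ERK itself induces, 15 had estimates above 0 (50.8% of all genes) and 3 were higher with a p under 0.05 (2.09% of all genes). Their median was 0.09, and 0.016 without VERCUR-CD mouse 2. Without overlap, 3 were higher and 1 was lower (3.71% and 4.63% of all genes were). Spry4 had 393, 582 and 431 against 653, 677 and 732, a log2 difference of 0.57 (unadjusted p = 0.0055). Dusp6, a phosphatase of ERK, had 1723, 2842 and 2294 against 3437, 2996 and 3033. Spry4 and Dusp6 did not overlap between the groups, whereas Dusp4, at 161, 335 and 200.04 against 339, 380.4 and 324, overlapped by a narrow margin. In WT mice the estimates of Spry4, Dusp6 and Dusp4 were -0.47, -0.34 and -0.53. In the study's MAPK and PI3K-AKT list of 34 genes, chosen by it on these samples, Creb3l3, Dusp4 and the cytokine receptor gene Flt3 (0.27) were under 0.05. Of these, 2 were higher and 1 was lower, against 2.09% and 1.44% of all genes.

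In the study's list of G protein-coupled receptor signaling, 6 of 26 genes were higher without overlap (3.71% of all genes were) and 0 were lower. An unadjusted p under 0.05 was found in 4, all higher (2.09% of all genes). These 4 were Fzd4, Pthlh, Cxcr4 and Grpr. Pthlh, a peptide related to parathyroid hormone, had 66.3, 60.9 and 71.9 against 114, 103 and 80.8. Cxcr4, a chemokine receptor, had 28.6, 37.1 and 27.6 against 48.0, 45.0 and 40.4. Grpr, the receptor of gastrin-releasing peptide, overlapped, at 17.1, 17.7 and 7.19 against 15.7, 42.3 and 29.8. The study chose this list on these mice, so its direction is not independent evidence. The same holds for its extracellular matrix list, which had a median of -0.17, 4 of 19 estimates above 0, and Capn12, a calpain protease gene, under 0.05 (-0.61, unadjusted p = 0.0249). Dcn, the proteoglycan decorin, had an interval from -0.43 to 0.52.

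Clock genes had a median of 0.15 and 16 of 20 estimates above 0 (50.8% of all genes). Rorb, Rora, Bhlhe40 and Hlf were higher with an unadjusted p under 0.05 (2.09% of all genes). Their estimates were 0.23, 0.31, 0.41 and 0.19, but the groups overlapped in each. Per2, a core clock repressor, had 993, 1461 and 647 against 934, 1229 and 1089. Glucocorticoid-responsive genes had 17 of 21 estimates above 0, a median of 0.12 and none under 0.05, and Fkbp5, the best known of them, had an estimate of -0.10 (95% interval -0.36 to 0.16). Heat shock chaperones and genes of endoplasmic reticulum stress had medians of -0.03 each and none under 0.05. Hspa1a, an inducible chaperone, had 785, 939.5 and 866 against 727, 761 and 715, which did not overlap, and Hspa5 overlapped. In the hypoxia list, Vegfa, the vascular growth factor, had 1694, 1709 and 1702 against 1916, 2090.0 and 1858. These groups were separate, with a log2 difference of 0.20 (95% interval -0.06 to 0.46). Aldoa, the glycolytic aldolase (ENSMUSG00000030695), had an estimate of -0.13 (unadjusted p = 0.0473). A second entry of Aldoa had an estimate of -0.18 and was not under 0.05. Cholesterol synthesis genes had a median of 0.06, with 5 of 25 higher without overlap (3.71% of all genes were) and none under 0.05.

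Transcripts of the mitochondrial genome and those of the nuclear respiratory chain had medians on opposite sides of 0. Of 13 mitochondrial messengers, 11 had estimates above 0 (50.8% of all genes), with a median of 0.25. Higher with an unadjusted p under 0.05 (2.09% of all genes) were mt-Nd2, mt-Nd4, mt-Atp8, mt-Cytb and mt-Nd5. Their estimates were 0.35, 0.33, 0.44, 0.24 and 0.46. The list medians of the mice were 0.15, -0.19 and 0.05 in VEH-CD and 0.04, 0.38 and 0.31 in VERCUR-CD, and the groups overlapped through VERCUR-CD mouse 1. mt-Co1, a core subunit of cytochrome oxidase, ran from 470832 to 567520.0 normalized counts in VEH-CD and from 498622 to 756646 in VERCUR-CD. In WT mice the co-treatment estimates of the list had a median of 0.20, and none of the 13 had an unadjusted p under 0.05 for the difference between genotypes. Under quantile normalization the median in CD was 0.088. The 47 nuclear genes had a median of -0.06, with 2 estimates above 0 and none under 0.05. Without VERCUR-CD mouse 2 that median was -0.012. By mouse, the nuclear list medians overlapped, at 0.04, -0.13 and 0.07 in VEH-CD and 0.04, -0.17 and -0.06 in VERCUR-CD. The 50 genes of cytosolic ribosomal proteins had a median of -0.04 with 3 above 0, and without VERCUR-CD mouse 2 their median was 0.05. Ndufa4 of the respiratory chain had an estimate of -0.06 and Rpl13 of the ribosome one of -0.09, each with overlapping groups.

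Processed pseudogenes, copies of messengers that were inserted back into the genome, lay mostly below 0. Of 519 tested, 389 (75.0%) had estimates below 0, against 49.2% of all genes, and the median log2 difference was -0.20. The median by mouse, relative to the mean of VEH-CD, was 0.01, -0.07 and 0.06 in VEH-CD and -0.13, -0.21 and -0.18 in VERCUR-CD, so the 3 VERCUR-CD mice lay below the 3 VEH-CD mice. An unadjusted p under 0.05 was found in 49 that were lower and 1 that was higher, against 1.44% and 2.09% of all genes. The groups did not overlap in 75 lower (14.5%, against 4.63% of all genes) and 8 higher ones (3.71% of all genes were). In VEH-CD minus VEH-WT, which shares the VEH-CD mice, the class had a median of 0.21, and in WT mice the co-treatment estimates had a median of 0.16. The median in CD was between -0.25 and -0.16 in every alternative. Pseudogenes share sequence with their parents and with each other, so their counts depend on how reads with several alignments were handled, which the sources used here do not give, and the 519 are not independent. The class was picked out after its values were seen. Protein-coding genes had a median of 0.0066 (14714 tested) and long intergenic noncoding RNAs one of 0.0034 (554 tested).

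**Figure D4:**
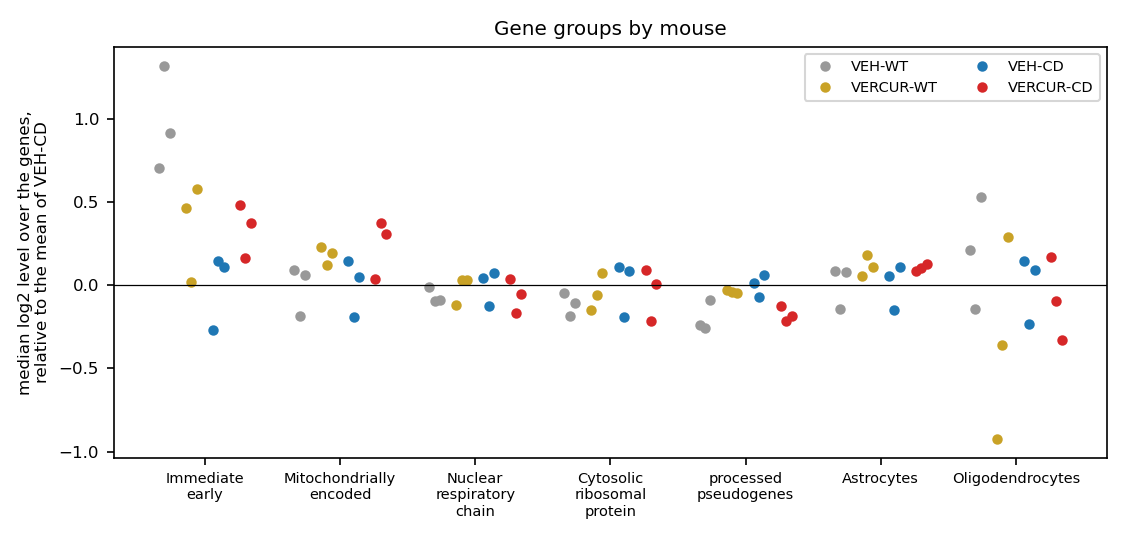
Each point is the median log2 level of a mouse over the genes of a group, relative to the mean of the 3 VEH-CD mice, for the 4 groups of mice. For processed pseudogenes the VERCUR-CD mice (-0.13 to -0.21) lie below the VEH-CD mice (-0.07 to 0.06), and for immediate early genes the VERCUR-CD mice (0.17 to 0.48) lie above them and below the VEH-WT mice (0.71 to 1.32).

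Cell types were compared through markers. Astrocytes had 12 of 12 estimates above 0 with a median of 0.10, and Gja1, connexin 43, was under 0.05 at 7595, 6529 and 7833 against 7732, 10418 and 8962. The groups overlapped, and Gfap, the filament protein of reactive astrocytes, had an estimate of 0.03 (95% interval -0.32 to 0.38). Markers of myelinating oligodendrocytes had a median of -0.08 with none of 12 under 0.05, and Mbp, myelin basic protein, had an interval from -0.72 to 0.44. Among 9 markers of their precursors, Pdgfra, a receptor of platelet-derived growth factor, had 2086, 1785 and 2038 against 2090.5, 2866 and 2465 (log2 difference 0.32, unadjusted p = 0.0363), and VERCUR-CD mouse 1 lay just above the highest VEH-CD mouse. Endothelial markers had a median of 0.08, with Tek, the angiopoietin receptor, under 0.05 (0.32, unadjusted p = 0.0468). Pericyte markers had a median of 0.10, with Abcc9, a subunit of ATP-sensitive potassium channels, under 0.05 (0.43, unadjusted p = 0.046).

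Among transporters of the blood-brain barrier, 11 of 13 estimates were above 0 and none was under 0.05. Abcb1a, P-glycoprotein, which verapamil is known to inhibit, had 1356, 1074 and 1260.2 against 1362, 1615 and 1432, which did not overlap (log2 difference 0.26, 95% interval -0.03 to 0.55). Of 19 vasoactive and smooth muscle genes, Ednrb, an endothelin receptor, had an estimate of 0.40 (unadjusted p = 0.0155) and Adra1b, an adrenergic receptor, one of -0.18 (unadjusted p = 0.0462). Acta2, smooth muscle actin, ran from 182 to 567 in VEH-CD and from 274 to 442 in VERCUR-CD.

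Markers of excitatory cortical neurons had a median of -0.02 and those of interneurons one of 0.02, each with none under 0.05. In the list of cortical layers, Rorb of layer 4 was under 0.05 in the higher direction and Nxph4, a neurexophilin, in the lower one (-0.49, unadjusted p = 0.0229). Striatal neurons had the lowest median of the lists, -0.75, with none of 12 under 0.05, and the markers varied by mouse within both groups. Drd1, a dopamine receptor, had 1562, 879 and 782 against 1413, 552 and 474. Of 8 T cell genes 4 were tested, with 4 estimates below 0 and a median of -0.30. By list median, VERCUR-CD mouse 1 lay within the range of VEH-CD. Trbc2, a constant region of the T cell receptor, was under 0.05 (-0.26, unadjusted p = 0.0218). Of 12 choroid plexus genes 7 were tested, with Ttr, transthyretin, at 10.3 to 76.7 in VEH-CD and 11.3 to 29.8 in VERCUR-CD. The lists of border macrophages, meningeal fibroblasts, hippocampal neurons, red blood cells and monoaminergic genes had medians of 0.20, 0.12, 0.08, -0.27 and 0.03, with none under 0.05. Single mice decided several of these. The median of border macrophages was -0.13 and that of meningeal fibroblasts -0.0036 without VEH-CD mouse 2, that of red blood cells was -0.071 without VEH-CD mouse 3, and that of monoaminergic genes was -0.12 without VERCUR-CD mouse 1. In the list of thalamic and hypothalamic neurons (median 0.07), Rora was under 0.05. Histone genes had a median of 0.05 with none of 13 under 0.05, and Hist1h2ap overlapped between the groups.

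**Figure D5:**
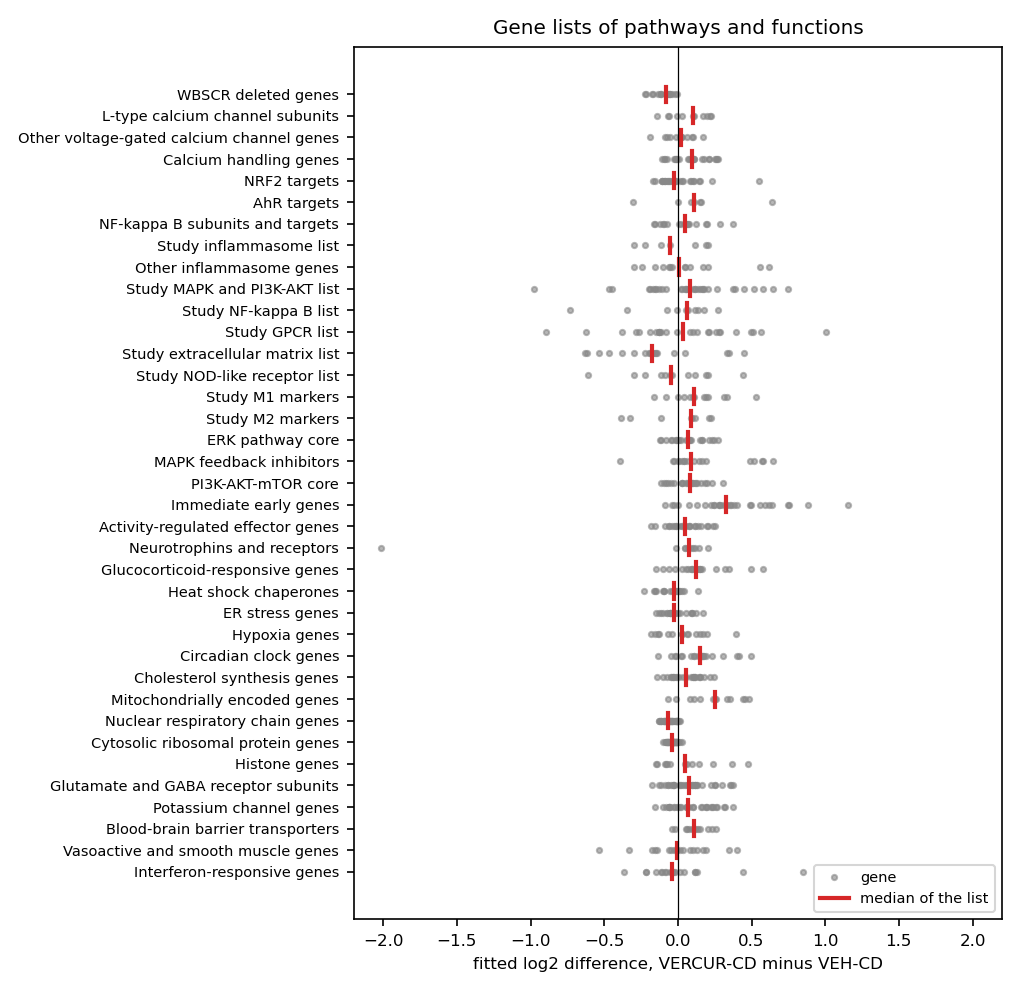
Points are the fitted log2 differences, VERCUR-CD minus VEH-CD, of the tested members of the lists of pathways and functions, with lists of cell types left out, and the red bars are the medians. Immediate early genes (0.33) and mitochondrially encoded genes (0.25) have the highest medians and the study's extracellular matrix list (-0.17) the lowest, and no gene passed an adjusted p of 0.05.

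Over the 56 lists, 884 distinct genes were tested and 0 passed an adjusted p of 0.05 (limma, Benjamini-Hochberg). Before adjustment, 38 (4.30%) were under 0.05 in the higher direction and 9 (1.02%) in the lower one, against 2.09% and 1.44% of all genes. These lists include those the study chose on these samples, and all were chosen with earlier results of these data known. The shares are therefore not independent evidence. The list medians ran from -0.75 to 0.33, and 15 of them exceeded 0.1 in size. Leaving out a single CD mouse gave 5 to 15 of the 56 medians the other sign, most often without VERCUR-CD mouse 2.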

How the data were processed

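The authors sequenced cortex RNA of 12 mice, 3 in each of 4 groups, on a HiSeq2000 in paired ends. Per the submitters' processing notes, FastQC, STAR 2.5.3a and GRCm38 were used. The counting program, the annotation release and the normalization are not given in the sources used here. The deposited table holds normalized counts for 17202 genes, that is, counts of reads divided by a single factor per sample. In all 12 columns, 100% of the values were whole multiples of a common step within 0.05 read, from which whole reads were recovered (40290000 to 56480000 per mouse). Other deposited tables hold the authors' own expression ratios for selected genes and were not used. Mice were grouped, and columns assigned, by their labels. The labels do not say whether libraries were prepared separately, so p values measure only the spread between these samples.

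Values were tested as log2(normalized count + 1), which understates differences of low genes, with limma 3.58.1 under R 4.3.3. The fit held 4 group means over all 12 mice, a trend of variance with level, and the 17111 genes whose mean reached 10. Tests were two-sided, and p values were adjusted by Benjamini-Hochberg across these genes. For single genes no permutation test is given, because 3 mice against 3 allow no p under 0.1. The fit was tested on simulated data with known changes. No libraries of a CD group agreed within sampling noise (chi-square per degree of freedom 6.43 to 70.2).

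Named genes are the 10 of smallest p in each direction among genes without overlap (provisional models and pseudogene symbols, 93 higher and 164 lower, were only counted), the 3 of smallest p in each direction for the difference between genotypes, the first gene of each list outside cell types, list genes with an unadjusted p under 0.05, and RNA markers of the study. Other list genes are named for their known role, and some of these, with the motifs, the pseudogene class and Fam205a4, were picked with their values in view. The comparison, its members and the 56 lists were chosen with earlier results of these data known. Lists are described without a test. Some genes these rules name, a gene by which libraries stood apart and a fit built on it are not reported here. Positions are from GENCODE M21 and promoters from RefSeq. Alternatives changed the pseudocount, filter, normalization, samples, weights and covariates, removed single values, used the replicate number as a block, and left out each mouse in turn; those on reads, gene-by-gene weights, the striatal level and a pair of mice were chosen after seeing the data.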

Additional observations from a re-analysis of the deposited data

How the results depend on the processing

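No gene was called, and the count under an unadjusted p of 0.05 stayed within 1.5 times 605, with other pseudocounts, filters, normalizations, voom on recovered reads, no variance trend, a robust variance step, the 2 groups alone or a limit on the coefficient of variation. Default sample weights, whose estimation did not converge and gave VERCUR-CD mouse 3 a weight of 24.4, called 2608 genes, with 5760 under 0.05 and 18 called for the difference between genotypes. Removing the value farthest from the group median where the coefficient of variation reached 20% called 242 genes, with 1992 under 0.05 and 492 called for the difference, and narrows groups by construction. Weights estimated gene by gene called 7 genes (Zfp189, Rprm, Mid1, Gm1821, Bc1, Ndst4 and Fam205a4), with 2280 under 0.05, and the striatal covariate called 1, Bc1. Without the CD mice high in striatal markers 1388 genes were under 0.05. Leaving out single mice called 0 to 2 genes and put 304 to 2320 under 0.05, with 0 called for the difference in each case, and Bc1 was also called without VEH-WT mouse 2 or 3 (adjusted p of 0.0185 and 0.0421, limma). The cause of these shifts was not tested. With the replicate block, 0 genes were called, for the difference too, and 563 were under 0.05. Same-numbered CD mice had correlations of 0.18, 0.06 and -0.04 in their deviations, and 3 of 6 CD mice correlated best with their own number. With 3 mice a side, these values cannot decide whether the numbers pair the mice. edgeR and DESeq2, planned as alternatives, were not run, because the deposited values are normalized, and voom on the recovered reads stood in for them. Of 107 named genes 83 kept their sign in every alternative, and of 56 list medians 19 did. The log2 difference took the other sign under quantile normalization in Cacna1a (-0.0023), and that of mt-Co1 was 0. Under sample weights the same held for Mrc1 (-0.44), Cacna1a (-0.027), Cyp1b1 (-0.34), Dcn (-0.52), Fkbp5 (0.0064) and Kcna1 (-0.037). With the farthest value removed the same held for Cacng6 (-0.16) and Kcna1 (-0.085). Under gene-by-gene weights the same held for Mrc1 (-0.25), Cacna1a (-0.011), Cyp1b1 (-0.23), Dcn (-0.36) and Kcna1 (-0.0022). With the striatal covariate the same held for Aim2 (0.071), Bdnf (-0.099), Dcn (-0.057) and Per2 (-0.073). Without the CD mice high in striatal markers the same held for Bdnf (-0.082), Nos2 (-0.15), Cd80 (-0.094), Cacna1a (-0.0061), Casp1 (0.11), Dcn (-0.058), Fos (-0.036), Hist1h2ap (-0.022), Acta2 (0.18) and Isg15 (0.0074). With single mice left out it ran from -0.11 to 0.20 in Bdnf, from -0.10 to 0.22 in Cd80, from -0.028 to 0.041 in Cacna1a, from -0.47 to 0.12 in Casp1, from -0.15 to 0.26 in Dcn, from -0.52 to 0.30 in Acta2, from -0.62 to 0.029 in Isg15, from -0.16 to 0.12 in Cacng6, from -0.015 to 0.15 in Il18, from -0.013 to 0.22 in Cd68, from -0.11 to 0.44 in Cyp1b1, from -0.015 to 0.14 in Nfkbia, from -0.16 to 0.048 in Hspa5, from -0.080 to 0.0048 in Gria1, from -0.16 to 0.43 in Per2, from -0.046 to 0.31 in Nos2, from -0.079 to 0.49 in Mrc1, from -0.18 to 0.016 in Rpl13 and from -0.085 to 0.35 in Kcna1. With 3 mice a side, the typical 95% interval reached 0.25 to each side on the log2 scale.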
